A study of Mus musculus with 8 samples.

Results

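Hal, Tmem87a and Rbm45 are 3 of 18193 named genes on the array. In a fit of 12982 genes by their brightest probe set, they were the 3 called higher in tumours of Tlr3/7/9-/- (KO) hosts than in tumours of WT hosts. With all probe sets fitted, Paip1 was also called higher, on 2 of its 4 probe sets. The 3 genes were chosen by this KO against WT difference, over both days and all 8 arrays, so their own differences are given as a description with no test. Each gene is represented by 1 probe set, 3 of the 45101 on the array. Whether several probe sets of a gene give the same difference could therefore not be examined for any of the 3.

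The tumours were grown from MOPC cells, a mouse oropharyngeal carcinoma line, injected under the skin of C57BL/6 mice. The hosts were Tlr3/7/9-/- mice, which lack 3 endosomal receptors for nucleic acids, or WT mice, and the injected line was the same in both. RNA of the whole tumour was hybridised to Affymetrix mouse expression arrays, with 2 KO and 2 WT arrays at day 6 and 2 KO and 2 WT arrays at day 4 after injection. The study's text gives 4 mice for day 6. Nothing states if the day 4 samples came from different animals, so p-values measure the spread between these samples, which may be technical.

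Hal encodes histidine ammonia-lyase, which opens the breakdown of histidine by turning it into urocanate, and it is best known from liver and from the outer layers of the epidermis. Tmem87a encodes a membrane protein of the Golgi apparatus with a GOLD domain, and has been studied mostly in human cells. Rbm45 encodes an RNA-binding protein known from inclusions in human neurodegenerative disease.

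The 3 genes do not share a chromosome with any of the deleted receptor genes. Hal lies on chromosome 10, and Tmem87a and Rbm45 lie on chromosome 2. Tlr3, Tlr7 and Tlr9 lie on chromosomes 8, X and 9. The RefSeq promoters of the 3 genes (GRCm38.p6, 250 bases before to 50 after the start, gene strand) are shown because the genes were high in the same arrays, with capitals marking the only match to the motifs searched.
Hal, chr10:93488518-93488817, plus strand: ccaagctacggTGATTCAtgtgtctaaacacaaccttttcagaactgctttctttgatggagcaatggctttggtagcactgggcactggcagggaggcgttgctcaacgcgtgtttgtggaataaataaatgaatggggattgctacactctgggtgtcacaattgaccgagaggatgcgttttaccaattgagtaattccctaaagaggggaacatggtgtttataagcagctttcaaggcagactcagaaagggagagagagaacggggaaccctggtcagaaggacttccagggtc
Tmem87a, chr2:120404067-120404366, minus strand: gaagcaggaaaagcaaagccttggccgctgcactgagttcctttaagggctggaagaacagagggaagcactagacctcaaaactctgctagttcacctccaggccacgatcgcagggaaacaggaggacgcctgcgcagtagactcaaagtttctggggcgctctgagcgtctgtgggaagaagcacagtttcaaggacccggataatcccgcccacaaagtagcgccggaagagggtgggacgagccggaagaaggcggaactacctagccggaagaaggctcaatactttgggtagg
Rbm45, chr2:76369734-76370033, plus strand: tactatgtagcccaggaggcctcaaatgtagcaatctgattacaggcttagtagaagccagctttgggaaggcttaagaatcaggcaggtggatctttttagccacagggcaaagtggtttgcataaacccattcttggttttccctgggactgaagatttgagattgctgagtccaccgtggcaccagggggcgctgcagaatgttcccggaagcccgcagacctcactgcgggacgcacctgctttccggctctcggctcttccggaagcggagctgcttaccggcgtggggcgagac
The capitals in the Hal promoter are a match to TGANTCA, the letters searched for AP-1 on both strands. Any base was allowed at N, which is T here. Of 32851 promoters of this length, 7.81% hold a match to these letters. The E-box CACGTG, held by 7.15%, had no match in the 3 promoters. The interferon response and NF-kappaB motifs, held by 3.44% and 0.411%, had none either. The Hal promoter had a GC content of 47.7% and 7 CpG dinucleotides, against a median of 52.7% and 7 over all promoters. The promoters of Tmem87a and Rbm45 had 15 and 13 CpG and a GC content of 56% and 55.3%. None of these 4 motifs was shared by the 3 promoters, and a match is a description of the letters, not a bound site.

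Hal had the largest KO against WT difference of all 45037 probe sets tested. Its signal, a linear MAS5 intensity, was 817.8 and 1703.1 in KO tumours at day 6, against 43.7 and 34 in WT tumours. At day 4 it was 2947.1 and 2920 in KO tumours, against 28.6 and 5.8 in WT tumours. The lowest KO array stood 18.7-fold above the highest WT array. The mean signal at day 6 was 1260 ± 626 in KO and 38.9 ± 6.86 in WT tumours (SD, n = 2 each). At day 4 it was 2934 ± 19.2 in KO and 17.2 ± 16.1 in WT tumours (SD, n = 2 each).

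On the scale of log2(signal + 16), which understates the change of low signals, Hal differed by 4.45 at day 6 (standard error 0.42) and by 6.56 at day 4 (standard error 0.42). The mean of both days was 5.51 (standard error 0.30). All 4 WT signals lay below the signal at the 40th percentile of an array, which was between 76.1 and 103.1. The KO signals lay between the 72.4th and the 88.6th percentile of their arrays. In RNA of whole tumours, more cells with a transcript and more of it per cell cannot be told apart.

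Tmem87a had the next highest difference, on a base of low to middle signals in WT. It had 1572.2 and 1208.7 in KO tumours at day 6, against 232.2 and 118 in WT tumours. At day 4 it had 1372.9 and 1421.1 in KO tumours, against 184.8 and 71.4 in WT tumours. The 4 KO arrays lay within 1.30-fold of each other, the 4 WT arrays within 3.25-fold, and the groups did not overlap. The means were 1390 ± 257 in KO and 175.1 ± 80.8 in WT tumours at day 6 (SD, n = 2 each). They were 1397 ± 34.1 in KO and 128.1 ± 80.2 in WT tumours at day 4 (SD, n = 2 each). The log2 difference was 2.93 at day 6, 3.41 at day 4 and 3.17 over both days (standard error 0.28).

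Rbm45 had a smaller difference on a higher base. Its signal was 1870.5 and 1727.9 in KO tumours at day 6, against 1011.8 and 799.5 in WT tumours. The KO tumours of day 4 had 1527.7 and 1699.4, against 696.1 and 723 in WT tumours. The lowest KO array stood 1.51-fold above the highest WT array, and arrays of 1 genotype lay within 1.22-fold in KO and 1.45-fold in WT tumours. The means were 1799 ± 101 in KO and 905.7 ± 150 in WT tumours at day 6 (SD, n = 2 each). They were 1614 ± 121 in KO and 709.6 ± 19.0 in WT tumours at day 4 (SD, n = 2 each). The log2 difference was 0.99 at day 6, 1.17 at day 4 and 1.08 over both days (standard error 0.11).

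**Figure D1:**
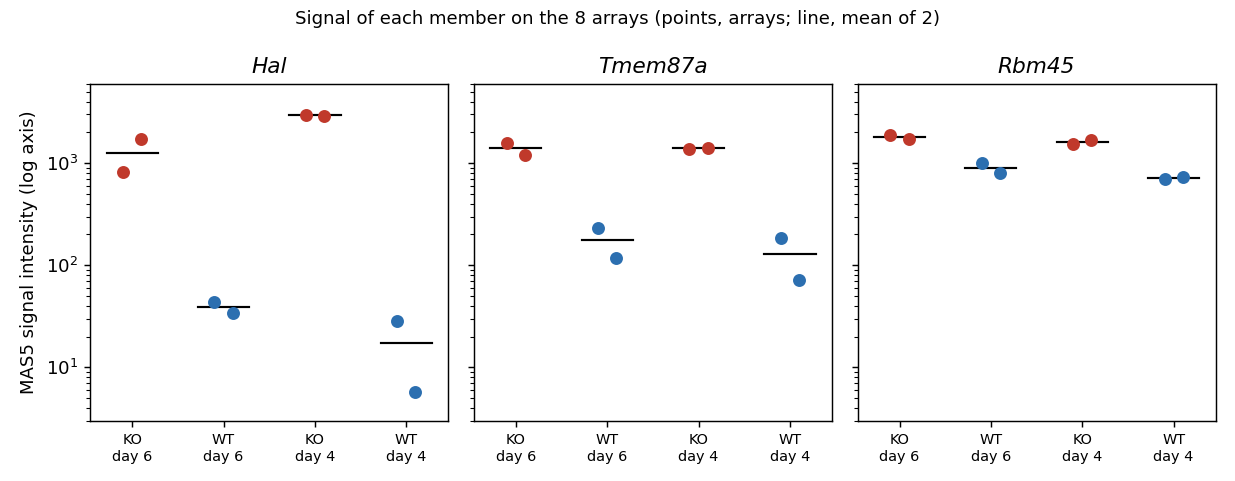
Signal intensity (vertical log axis) of Hal, Tmem87a and Rbm45 on each of the 8 arrays, by host genotype and day (points, arrays; horizontal line, mean of 2 arrays). In each panel the 4 KO arrays sit above the 4 WT arrays, by at least 18.7-fold for Hal, 5.21-fold for Tmem87a and 1.51-fold for Rbm45.

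These values must be read against their choice. Over all probe sets, 0.0111% were called higher and 0.00444% lower in KO tumours (limma, adjusted p under 0.05), and all 4 KO arrays stood above all 4 WT arrays for 0.735% and below them for 1.55%. With 1 probe set per gene, 0.0308% of the genes passed, which were the 3 genes and Cd209a, a C-type lectin gene, with a log2 difference of −3.43. Rbm45 was the gene just inside the threshold, with an adjusted p of 0.0236 in that limma fit. Just outside lay Serpina3n, an acute-phase gene, at −1.12 (adjusted p = 0.0509), and Serping1, the complement C1 inhibitor gene, at −0.90 (adjusted p = 0.0806). By size, Tmem87a had the second highest difference and Rbm45 ranked 181 among the probe sets higher in KO. The median difference of all probe sets was −0.02.

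The day was a measure that did not enter the choice. Over both genotypes, 8.68% of the probe sets passed limma's test between day 6 and day 4, and the 3 genes did not pass. The log2 difference, day 6 minus day 4, was −0.25 for Hal (95% interval −0.91 to 0.42, adjusted p = 0.679). It was 0.22 for Tmem87a (95% interval −0.42 to 0.86, adjusted p = 0.702) and 0.25 for Rbm45 (95% interval −0.0019 to 0.49, adjusted p = 0.218). Rbm45 passed limma's test when the arrays were centred on their medians (0.42, adjusted p = 0.0463), a scaling that moved the median day difference of all probe sets to 0.09, against −0.08 without it.

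Within the KO tumours, 1.37% of the probe sets passed between the days. Hal had a mean signal of 1260 at day 6 and 2934 at day 4 there, and both arrays of day 6 lay below both arrays of day 4. Its log2 difference was −1.30 (95% interval −2.25 to −0.36) and did not pass in limma (adjusted p = 0.157, unadjusted p = 0.0123). A separation of 2 arrays from 2 has an exact permutation p of 0.333 at the lowest. Tmem87a and Rbm45 differed by −0.02 and 0.16 in KO tumours (adjusted p = 0.988 and 0.676 in limma). Within the WT tumours, where 1.47% of the probe sets passed, the differences were 0.81 for Hal, 0.46 for Tmem87a and 0.34 for Rbm45 (adjusted p = 0.392, 0.640 and 0.333 in limma).

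The difference between the KO effects of the 2 days was tested directly. It was −2.11 for Hal (95% interval −3.45 to −0.77), −0.48 for Tmem87a (95% interval −1.76 to 0.80) and −0.18 for Rbm45 (95% interval −0.68 to 0.32), each with an adjusted p of 0.987 in limma. By this test 0% of the probe sets passed, while 2181 had an unadjusted p under 0.05, Hal among them (unadjusted p = 0.0059). The methods' t-test was not run for this difference. The days also differed in sex-linked transcripts. Xist, expressed from the inactive X chromosome of females, was higher at day 6 by a log2 of 6.01 (limma, adjusted p = 6.9e-06), and the Y-linked Eif2s3y was lower by 4.89 (adjusted p = 8.2e-05). Day and this difference cannot be told apart in these comparisons, while each day holds both genotypes.

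The deleted genes were lower in KO tumours on some probe sets and not on others. Tlr7 had a signal of 80.1 and 10.8 in KO tumours at day 6 on 1 of its 3 probe sets, against 471.3 and 466.1 in WT tumours. The KO tumours of day 4 had 70 and 25.2, against 382.9 and 673.4 in WT tumours. The 4 KO arrays lay below the 4 WT arrays, with a log2 difference of −3.20, which did not pass in limma (adjusted p = 0.107) unless KO day 6 replicate 1 was left out (−3.66, adjusted p = 0.0290). The other probe sets of Tlr7 differed by 0.34 and 0.78, those of Tlr3 by −1.08 and −0.99 and that of Tlr9 by 0.87, and none passed (adjusted p = 0.892, 0.773, 0.376, 0.356 and 0.758 in limma). On both probe sets of Tlr3 the 4 KO arrays also lay below the 4 WT arrays, as for 1.55% of all probe sets. Where a probe set lies outside the removed stretch, its signal is no check of the genotype.

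Hal was set beside markers of the tissues it is known from, because 1 array stood apart in its epidermal transcripts. The summed signal of 9 measured genes of the cornified epidermis was 32051 in KO day 6 replicate 2, against 1746 in KO day 6 replicate 1. In WT tumours of day 6 it was 1679 and 1840. At day 4 it was 3149 and 3411 in KO tumours, against 3273 and 3467 in WT tumours. Krt10, a keratin of the upper epidermis, had 9762.5 in KO day 6 replicate 2 and between 467.9 and 599.4 on the other 7 arrays. In KO tumours of day 6, Hal was 817.8 in replicate 1 and 1703.1 in replicate 2. The part of epidermal tissue in the Hal signal was not tested. Without KO day 6 replicate 2, the log2 difference of Hal over both days was 5.25.

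The 5 measured hepatocyte genes lay below the 40th percentile of mean signal, with a sum of 61.2 to 308.7 in KO and 51.9 to 188 in WT tumours. Alb, the albumin gene, had 11.1 to 132.9 in KO and 7.5 to 62.7 in WT tumours. The 5 basal keratinocyte genes summed to 21572 in KO day 6 replicate 2 and to 3241 to 4833 elsewhere. Their brightest gene, Krt14, had 11717 in that array and 2514.5 to 4103.6 in the others. Skeletal muscle genes were high in KO day 6 replicate 2 (sum 44868), KO day 4 replicate 2 (17379) and WT day 4 replicate 2 (122448), against 585.9 to 834.5 in the other arrays. Hal was 1703.1, 2920 and 5.8 in those 3 arrays, and the part of muscle in its signal was not tested.

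**Figure D2:**
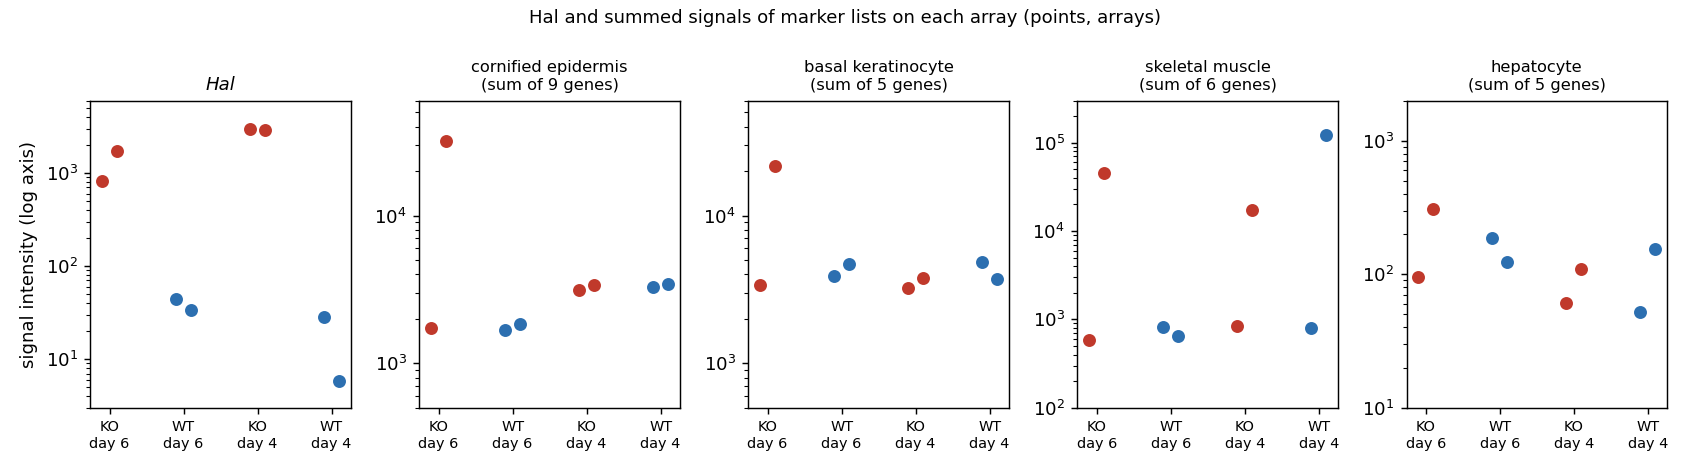
Signal of Hal and summed signal of marker lists (vertical log axes, each with its own range) on each array, by host genotype and day (points, arrays). KO day 6 replicate 2 stands apart in the epidermal sums, while Hal is at or above 817.8 on all 4 KO arrays.

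Summed leukocyte signals were lower in KO tumours, with Csf1r the brightest gene of the list, and no gene of the list passed the test. The sum of 6 genes was 24948 to 30744 in KO and 34364 to 42632 in WT tumours, and the part of this in the differences of the 3 genes was not tested. Csf1r, the receptor of macrophage growth factors, differed by −0.39 (adjusted p = 0.580 in limma), and Ptprc, which marks leukocytes, by −0.36 (adjusted p = 0.712). Adgre1, a macrophage marker, had all 4 KO arrays below all 4 WT arrays, a difference of −0.74 (adjusted p = 0.199 in limma). Csf1r had the same order of arrays, which 1.55% of all probe sets had. The T cell genes Cd3e and Cd8a differed by 0.04 and −0.15, and S100a8, of neutrophils, by 0.35 (adjusted p = 0.993, 0.961 and 0.965). Their standard errors were 0.42, 0.27 and 0.74, so these values are imprecise. Cd3e lay at the 25.7th percentile of mean signal, and S100a8 had 5636.4 and 297.4 in the WT tumours of day 4. The 5 mast cell genes had a median difference of 0.21, the 4 neuronal genes of 0.21 and the 3 measured adipocyte genes of −0.77. Over all 13 lists, 0 of the 100 measured genes passed between KO and WT in limma, and 10 had an unadjusted p under 0.05, of which 3 were leukocyte genes. Of all probe sets 6.85% had such a p. In the fit of 12982 genes by their brightest probe set, 1127 had such a p and 0.0308% passed.

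The other genes of histidine breakdown and use did not pass between KO and WT (0 of 14 in limma, 1 with an unadjusted p under 0.05). In the fit of 12982 genes 0.0308% passed and 1127 had such a p, so 0 is no result about this list. The median log2 difference of the 14 genes was −0.21. The enzymes downstream of Hal had low signals: Uroc1, which breaks down urocanate, differed by −0.60 (adjusted p = 0.855), Amdhd1, which acts next, by −0.44 (adjusted p = 0.890), and Ftcd, which passes the remaining carbon to folate, by −0.44 (adjusted p = 0.920). Uroc1 had 6.3 to 68.6 in KO and 38.2 to 101.1 in WT tumours, so the groups overlapped. Hdc, which turns histidine into histamine, had 98.3 to 927.1 in KO and 18.1 to 587.6 in WT tumours, a difference of 0.93 (adjusted p = 0.874). Hnmt, which inactivates histamine, differed by −0.30 (adjusted p = 0.889). Between the days, 1 of the 14 passed, against 8.68% of all probe sets and 3008 of 12982 genes fitted by their brightest probe set. Hars, the histidyl-tRNA synthetase gene, was higher at day 6 by 0.67 (limma, adjusted p = 0.00425).

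The 8 measured genes of filaggrin processing, which frees histidine in the epidermis, had a median difference of 0.05. Between KO and WT 0 passed in limma (1 with an unadjusted p under 0.05), where 0.0308% of 12982 genes passed and 1127 had such a p. Blmh, a protease that acts in this process, differed by 0.31 (adjusted p = 0.575 in limma). It was the 1 of the 8 that passed between day 6 and day 4, at 0.46 (adjusted p = 0.0138). Between the days 8.68% of all probe sets passed, and 3008 of 12982 genes in their own filtered fit, below whose filter 3 of the 8 lay. Flg, the filaggrin gene, had 2.6 to 28.9 in KO and 2.6 to 16.9 in WT tumours, near the lower end of the arrays.

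Of 15 measured genes of the Tmem87a family and of traffic between Golgi and endosomes, 0 passed between KO and WT in limma (0 also at an unadjusted p under 0.05). In the fit of 12982 genes 0.0308% passed and 1127 had an unadjusted p under 0.05. The differences of the 15 genes lay between −0.18 and 0.16 with a median of 0.01. The closest relative of Tmem87a, Tmem87b, had 1953.6 to 2294.7 in KO and 1715.4 to 2292.4 in WT tumours, a difference of 0.01 (adjusted p = 0.993). Gpr107 and Gpr108, other membrane proteins with a GOLD domain, differed by −0.18 and −0.16 (adjusted p = 0.801 and 0.772). Between the days 2 of the 15 passed, against 8.68% of all probe sets and 3008 of 12982 genes in their own filtered fit. Wls, the carrier of Wnt proteins, and Golga4, a Golgi tether, were lower at day 6 by 0.43 and 0.56 (limma, adjusted p = 0.0319 and 0.0208).

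For Rbm45, 16 genes of RNA-binding proteins and of the complex that methylates adenosine in RNA were measured. Between KO and WT 0 passed in limma (2 with an unadjusted p under 0.05), where 0.0308% of 12982 genes passed and 1127 had such a p. The differences of the 16 genes lay between −0.06 and 0.41, with a median of 0.07. Mettl3 and Mettl14, the writers of this mark, differed by −0.01 and 0.14 (adjusted p = 0.993 and 0.839), and Wtap, their partner, by 0.06 (adjusted p = 0.934). Between the days 3 of the 16 passed, against 8.68% of all probe sets and 3008 of 12982 genes in their own filtered fit. Tardbp, Ewsr1 and Hnrnpa2b1, all genes of RNA-binding proteins, were higher at day 6 by 0.57, 0.42 and 0.34 (limma, adjusted p = 0.0127, 0.0255 and 0.0390).

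**Figure D3:**
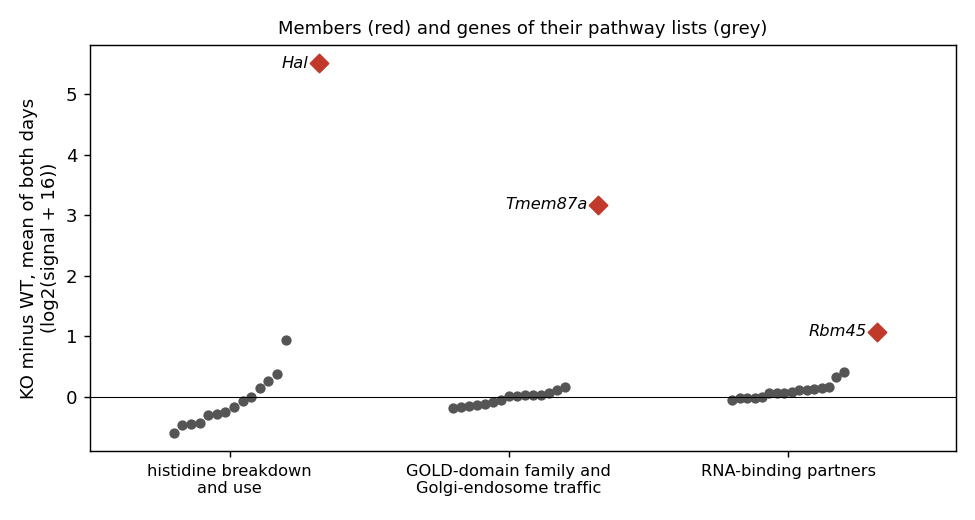
Log2 difference, KO minus WT over both days, of Hal, Tmem87a and Rbm45 (red diamonds) and of the measured genes of the list beside each (grey points, sorted by value, 1 probe set per gene). The genes for Tmem87a lie between −0.18 and 0.16 and those for Rbm45 between −0.06 and 0.41.

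The neighbours of the 3 genes on their chromosomes were examined in the same fit. The 5 nearest measured genes on each side of each gene were 30 in all, with 63 probe sets. Of these 0 passed between KO and WT in limma, where 0.0111% of all probe sets were called higher and 0.00444% lower. An unadjusted p under 0.05 was found for 3 of the 63, against 6.85% of all probe sets. They were 1 probe set each of Gm32688 near Hal (1.32, unadjusted p = 0.0118), Snap23 near Tmem87a (−0.39, unadjusted p = 0.00113) and Ttc30b near Rbm45 (−0.35, unadjusted p = 0.0179), all from limma. The 4 KO arrays stood above the 4 WT arrays for 1 of the 63 probe sets (of Ccdc38, near Hal), against 0.735% of all probe sets. Among the 33 probe sets of mean signal at or above the 40th percentile, the differences lay between −0.45 and 1.22 with a median of −0.00.

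Beside Hal, Lta4h, which makes a leukotriene, differed by −0.14 on its brightest probe set (adjusted p = 0.862). Amdhd1, the neighbour on the other side and an enzyme of the same pathway, had signals near the lower end of the arrays. Beside Tmem87a, Vps39, of endosome and lysosome traffic, differed by 0.09 and −0.11 on its 2 probe sets (adjusted p = 0.968 and 0.918), and Ganc, a glucosidase gene, by −0.45 on both (adjusted p = 0.892 and 0.771). Beside Rbm45, Cyct, the testis cytochrome c gene, differed by −0.28 (adjusted p = 0.904). The 5 probe sets of Osbpl6, a lipid-binding protein gene, differed by 0.15 to 0.79. The value of 1.22 belonged to Ttn, the muscle gene titin (standard error 1.78).

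**Figure D4:**
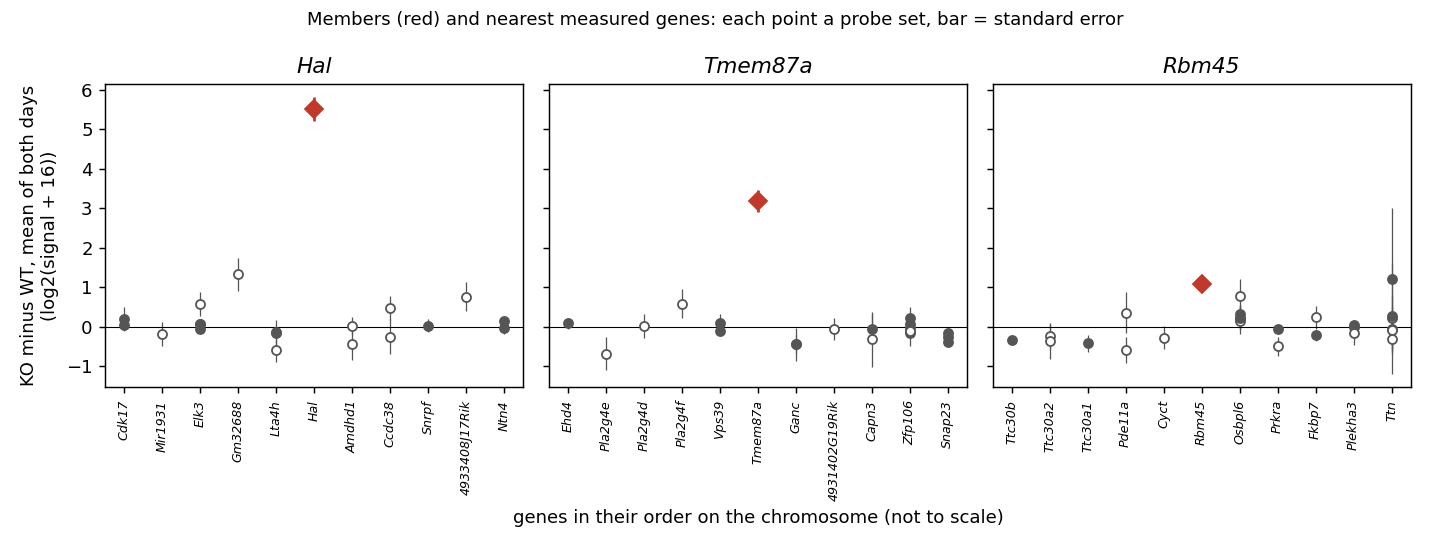
Log2 difference, KO minus WT over both days, of each gene (red diamond) and of all probe sets of its 5 nearest measured genes on each side, in chromosome order and not to scale (circles, filled where the mean signal was at or above the 40th percentile; bars, standard error). The neighbours of Hal at or above that percentile lie between −0.14 and 0.20, and Hal at 5.51.

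The 3 genes were chosen for the same genotype difference, so a high correlation among them across all arrays follows from the choice. As a description over 8 arrays in 4 groups, Hal had a Pearson correlation of 0.966 with Tmem87a and 0.933 with Rbm45, and Tmem87a had one of 0.965 with Rbm45. Within the 4 KO arrays these 3 correlations were −0.43, −0.86 and 0.40, in the same order. Within the 4 WT arrays they were 0.87, 0.63 and 0.57. Within the KO tumours both Hal signals of day 6 lay below both of day 4, and both Rbm45 signals of day 6 lay above both of day 4. A separation of 2 arrays from 2 has an exact permutation p of 0.333 at the lowest. Neither day difference passed in limma (adjusted p = 0.157 for Hal and 0.676 for Rbm45). Most like Hal over the 8 arrays, besides Tmem87a and Rbm45, were 2 probe sets of Paip1, which encodes a partner of the poly(A)-binding protein (0.966 and 0.956), and Bloc1s6, of the BLOC-1 complex (0.931). Most like Tmem87a were Paip1 (0.978), Lsm12 (0.969) and Errfi1, a feedback inhibitor of the EGF receptor (0.944). Most like Rbm45 were Cops7b, of the COP9 signalosome (0.972), 4930453N24Rik (0.953), Lsm12 (0.939) and Rbm43 (0.939).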

How the data were processed

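Hal, Tmem87a and Rbm45 were described in 8 arrays of whole MOPC tumours, by groups from the sample labels. The deposited values are linear signal intensities, 1 for each probe set, for which the submitters' processing notes name MAS5 with no version. Every array had a 2% trimmed mean of 1000, medians were 133.2 to 175.2, and the Spearman correlation within groups was 0.941 to 0.952. The number of arrays limits the precision. The labels give 200 ng of RNA per array, and the study's methods another amount.

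In the platform annotation 34945 of 45037 probe sets had 1 gene symbol, 932 several and 9160 none, and 64 control sets were left out. Of the first, 34741 matched GRCm38.p6 by Entrez identifier, with 0 symbols changed. Values of log2(signal + 16) entered a limma 3.58.1 model (R 4.3.3) of 4 groups, with 4 residual degrees of freedom and a trend on the mean. The p-values were adjusted by Benjamini-Hochberg over all 45037 probe sets, with a threshold of 0.05. In the fit that chose the 3 genes, filtered at the 40th percentile of mean signal, they were adjusted over its 12982 genes. Each other gene of a list was represented by its brightest probe set. An exact permutation test of the days over 8 arrays ignores the genotype, whose spread fixes a high p for the 3 genes, and was not used. Alternatives were quantile normalization, median centring, pseudocounts of 1 and 64, filters at the 40th and 60th percentile, 1 probe set or the mean per gene, no trend, a replicate block, leaving out each array, and the methods' t-test.

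The genes named are the 3 genes, the deleted receptors, the 5 nearest measured genes on each side, the 5 probe sets most correlated with each gene, 5 histidine enzymes, 3 relatives of Tmem87a, 3 methylation writer genes and up to 2 bright members of other lists. Krt10, Alb, Flg, Adgre1, Cd3e, Cd8a, S100a8 and list genes that passed between the days were added after their values were seen, as were Cd209a, Serpina3n and Serping1. The 3 genes and the lists were chosen with earlier results of these data known.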

Additional observations from a re-analysis of the deposited data

Results flagged for a closer look

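Hal had day differences of opposite sign in KO and WT tumours, which did not pass the test of their difference. The log2 difference, day 6 minus day 4, was −1.30 in KO tumours and 0.81 in WT tumours, which differ by −2.11. Both KO arrays of day 6 lay below both KO arrays of day 4, and both WT arrays of day 6 lay above both WT arrays of day 4. Each separation of 2 arrays from 2 has an exact permutation p of 0.333 at the lowest. The test of the difference of −2.11 in limma gave an adjusted p of 0.987 (unadjusted p = 0.0059), and 2181 of 45037 probe sets had an unadjusted p under 0.05. The 4 WT signals lay between 5.8 and 43.7, below the signal at the 40th percentile of their arrays. Leaving out each array in turn gave −2.63 to −1.59. Sex-linked transcripts differed between the days, and their part was not tested.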

How the results depend on the processing

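The KO minus WT differences of the 3 genes kept their sign in every alternative run. All 4 KO arrays stood above all 4 WT arrays for each gene. Leaving out arrays, filters and pseudocounts could therefore not reverse the sign, and this is no support for the differences. Hal ranged from 4.41 with a pseudocount of 64 to 6.30 with a pseudocount of 1, Tmem87a from 2.81 to 3.47 and Rbm45 from 0.99 to 1.16. Hal gave no value with the filter at the 60th percentile, which it did not reach. An adjusted p under 0.05, the basis of the choice, held in 16 of 19 alternatives for Hal, 12 of 20 for Tmem87a and 9 of 20 for Rbm45. The 7 probe sets called between KO and WT became 3 with the filter at the 60th percentile, 4 with 1 probe set per gene, 4 with the mean of a gene's probe sets, 0 with no trend, 1780 by the methods' t-test unadjusted and 1 after Benjamini-Hochberg. Leaving out 1 array gave 1 to 28, with 1 without either WT array of day 6 or either KO array of day 4, 23 without KO day 6 replicate 1 and 28 without WT day 4 replicate 1. The 3911 called between the days became 1827 with the mean of a gene's probe sets, 21 with no trend, 9955 by the methods' t-test unadjusted and 1178 after Benjamini-Hochberg, and 835 to 3883 with 1 array left out (835 without KO day 4 replicate 2). Of those calls 54.1% were higher at day 6, against 83.1% with median centring. The 0 called for the difference between KO effects became up to 7 (without KO day 6 replicate 1).

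An alternative chosen after seeing the data left out the 3 arrays with skin or muscle transcripts together. It called 0 between KO and WT and 44 between the days, with 1 residual degree of freedom, and the KO minus WT differences were 4.99 for Hal, 2.96 for Tmem87a and 1.08 for Rbm45. The difference between KO effects of Tmem87a reversed to 0.33 there, and ranged from −1.08 to 0.12 with 1 array left out. The day difference of Hal reversed to 0.0832 with a pseudocount of 1, and ranged from −0.51 to 0.0152 with 1 array left out, and that of Tmem87a from −0.0788 to 0.52. The replicate 1 minus replicate 2 differences within each group were correlated between groups, over probe sets at or above the 40th percentile. These correlations were −0.10 to 0.18 over 6 pairs of groups, so the numbers were not taken to pair samples. With a replicate block 6 probe sets were called between KO and WT and 3174 between the days, and Rbm45 had an adjusted p of 0.0772 in limma. The causes of these changes were not tested. Signals below the 40th percentile carry little precision.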

Other observations

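Paip1, whose product binds the poly(A)-binding protein and acts in translation, was chosen after its values were seen, as the gene most often found among those like Hal and Tmem87a. Unlike the 3 genes it has several probe sets, and they disagreed. On 1 of them its signal was 1518.2 and 1105.4 in KO tumours at day 6, against 175.2 and 147.6 in WT tumours. At day 4 it was 1652.9 and 1621.6 in KO tumours, against 284.7 and 138.7 in WT tumours. The log2 difference over both days was 2.91 (limma, adjusted p = 0.00492). On another it was 2.54 (adjusted p = 0.00780). On the brightest probe set it was −0.01 (adjusted p = 0.995), and on the remaining one 0.21 (adjusted p = 0.969). Thus 2 of the 4 probe sets of Paip1 were higher in KO tumours and the brightest was not called. Those 2 were found by their likeness to genes chosen for the KO against WT difference, so their values are a description and no separate test.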
